A study of Homo sapiens with 18 samples.

Results

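The 9 genes described here encode factors that mark or maintain human pluripotent stem cells: POU5F1, NANOG, PRDM14, SALL4, UTF1, DPPA2, DPPA4, ZFP42 and L1TD1. They were chosen by name, and all 9 were found by symbol among the 37550 rows of the deposited expression table. All 9 also passed the filter on low values, a level of at least 1 TPM (a length-scaled transcript abundance that sums to the same total in every library) in at least 2 libraries, which 17033 genes passed. NANOG and DPPA2 passed it only through the 2 undifferentiated libraries, where they are high, so a lower level after day 0 was bound to follow for them. The question was how fast each factor leaves the cells as they become neural ectoderm, and whether this depends on the kind of neural ectoderm and on the medium that follows.

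The 18 poly-A RNA libraries came from H1, an established human embryonic stem cell line with wild-type genotype, and formed 9 groups of 2 biological replicates. Undifferentiated cells in stem cell medium (hPSC) gave day 0. Every other group spent day 1 in a definitive ectoderm medium with A8301 at 1 µM (an inhibitor of TGF-beta, activin and NODAL receptors), trametinib at 250 nM (a MEK inhibitor), C59 at 1 µM (a porcupine inhibitor that blocks WNT secretion) and LDN193189 at 100 nM (a BMP receptor inhibitor). On day 2, cells were replated in medium for anterior neural ectoderm (aNE: A8301 at 1 µM, LDN193189 at 100 nM and C59 at 1 µM) or posterior neural ectoderm (pNE: A8301 at 1 µM, LDN193189 at 100 nM, XAV939 at 1 µM, a tankyrase inhibitor, with FGF2 at 20 ng/mL and TTNPB at 50 nM, a retinoid), each with the survival agent thiazovivin. Both origins were then carried to day 4 in a forebrain (aNE_T, pNE_T), midbrain (aNE_M, pNE_M) or hindbrain medium (aNE_H, pNE_H). The full composition of the last 3 media is not used here. Cells taken at day 2 were plated at 37500 per cm2, whereas cells carried to day 4 were plated at 75000 per cm2 from aNE and 150000 per cm2 from pNE, so at day 4 origin and plating density cannot be told apart. Nor can the step from day 2 to day 4 be told apart from the rise in plating density, which holds for every change over that interval below.

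POU5F1 (also called OCT4) and NANOG are transcription factors at the core of the network that keeps stem cells undifferentiated, and with SOX2 they activate each other and themselves. PRDM14, SALL4, UTF1, DPPA2, DPPA4 and ZFP42 (also called REX1) act around this core as DNA-binding or chromatin-associated proteins, and L1TD1 is an RNA-binding protein derived from a LINE-1 element. In primed human stem cells this network depends on activin or NODAL and on FGF signalling, and its genes are silenced as cells enter the germ layers, although SOX2 and SALL4 also serve early neural cells.

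Promoter sequences show how differently built these genes are at their starts. RefSeq (GRCh38.p14) held a promoter for 6 of the 9 genes: NANOG, DPPA2, DPPA4, ZFP42, UTF1 and L1TD1. Below are the 250 bases before the start of NANOG, the gene with the smallest share of its day-0 TPM left at day 2. Those of DPPA2 and DPPA4, which are neighbours, and of ZFP42, whose loss varied most between media, follow. Each is printed 5′ to 3′ on the gene's strand. Capitals mark matches to the last 7 or first 7 letters of the octamer bound by POU factors (TTTGCAT or ATTTGCA, either strand) or to a SOX core (ACAATG, either strand).
NANOG: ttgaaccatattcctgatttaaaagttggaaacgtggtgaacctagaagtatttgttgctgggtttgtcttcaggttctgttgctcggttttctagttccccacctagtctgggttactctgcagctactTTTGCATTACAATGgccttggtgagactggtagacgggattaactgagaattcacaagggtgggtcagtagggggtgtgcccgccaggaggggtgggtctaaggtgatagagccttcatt
DPPA2: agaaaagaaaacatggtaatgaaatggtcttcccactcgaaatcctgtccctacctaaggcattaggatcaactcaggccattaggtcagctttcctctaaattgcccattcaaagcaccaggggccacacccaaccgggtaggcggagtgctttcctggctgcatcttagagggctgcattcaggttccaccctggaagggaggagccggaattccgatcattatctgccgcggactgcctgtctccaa
DPPA4: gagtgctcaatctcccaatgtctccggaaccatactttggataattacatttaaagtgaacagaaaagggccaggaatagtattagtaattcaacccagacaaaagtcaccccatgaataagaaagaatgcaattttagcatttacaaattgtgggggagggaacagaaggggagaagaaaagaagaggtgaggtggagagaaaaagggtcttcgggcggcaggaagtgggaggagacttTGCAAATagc
ZFP42: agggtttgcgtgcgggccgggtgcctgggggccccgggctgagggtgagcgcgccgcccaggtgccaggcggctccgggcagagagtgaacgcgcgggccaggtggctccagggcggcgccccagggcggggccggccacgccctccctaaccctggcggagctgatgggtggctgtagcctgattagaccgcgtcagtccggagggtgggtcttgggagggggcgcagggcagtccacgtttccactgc
The NANOG window is chr12:7789152-7789401 on the plus strand, and 6 of its bases fall in an exon annotated in GENCODE 29. The windows of DPPA2 (chr3:109316518-109316767, minus strand) and ZFP42 (chr4:187995521-187995770, plus strand) overlap no annotated exon. That of DPPA4 is chr3:109337547-109337796 on the minus strand, and 26 of its bases fall in annotated exons of GENCODE 29. NANOG carries the last 7 letters of the octamer and the SOX core with 1 base between them (TTTGCATNACAATG), from 120 to 107 bases before the start. None of the 6 windows holds both 7-letter parts, so none holds the full octamer. Of 35116 RefSeq promoter windows of this length, 2 hold this composite and 3.94% hold TTTGCAT, with or without a SOX core. DPPA4 has ATTTGCA on the opposite strand, read as TGCAAAT, 10 to 4 bases before the start, which 3.67% of windows hold. ACAATG occurs in 9.29% of windows, and among the 6 genes in NANOG. In base composition the windows ran from 43.2% G or C with 3 CG pairs in DPPA4 and 47.6% with 4 in NANOG, through 52% with 7 in DPPA2, 59.6% with 12 in L1TD1 and 70.8% with 32 in UTF1, to 74.4% with 23 in ZFP42. Over all windows the medians were 58% and 11 CG pairs. These matches describe letters and not occupied sites.

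Over all 18 libraries, between 13686 and 14679 genes per library had at least 1 TPM, each library correlated best with its own replicate, and the read depth is unknown, since it cannot be read back from TPM. Changes below are log2 fold changes on the log2(TPM + 1) scale, which understates the change of low genes, with SE from limma fitted to all 18 libraries. A gene was called where its adjusted p was under 0.05 (limma, Benjamini-Hochberg over 17033 genes) and its log2 fold change was 1 or more in size. Each p-value rests on 2 libraries a group. Counts at an unadjusted p under 0.05 stand without the share of all tested genes at that p, which was not counted. In bulk RNA a smaller share of cells that express a gene and less RNA per cell cannot be told apart.

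By day 2, 7 of the 9 genes were called lower in aNE and 8 in pNE, where 6.19% and 5.74% of all tested genes were. Without NANOG and DPPA2, which the filter let through by hPSC alone, it was 5 and 6 of the other 7. None of the 9 was called higher, against 7.36% of tested genes in aNE and 7.14% in pNE, and 1 of them, SALL4 in aNE, rose at an unadjusted limma p under 0.05. The median change of the 9 was -2.05 in aNE and -2.39 in pNE, beside 0.06 and 0.05 over all tested genes. The 9 genes did not leave together: at day 2 between 0.330% (NANOG) and 185% (SALL4) of the day-0 TPM was present in aNE, and between 0.420% and 84.3% of the same 2 genes in pNE. Both day-2 comparisons use the same 2 hPSC libraries.

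**Figure D1:**
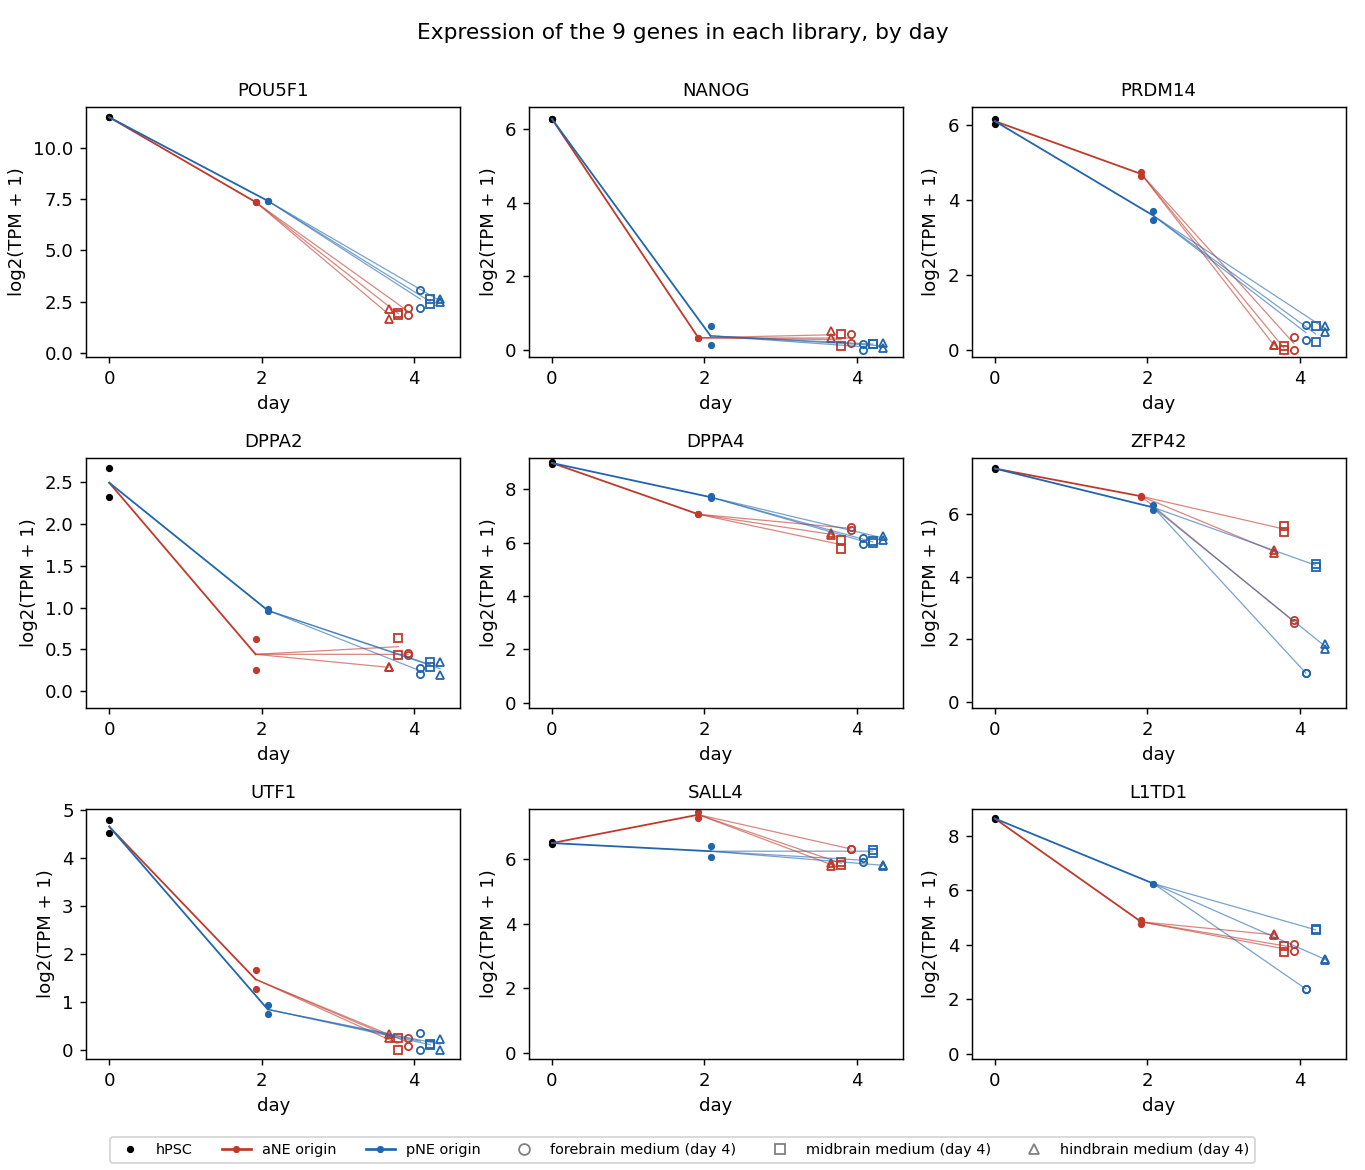
Expression of the 9 genes by day. Each panel plots log2(TPM + 1) against day for 1 gene, with 1 symbol per library and lines joining group means; black is hPSC, red the aNE origin, blue the pNE origin, and circles, squares and triangles at day 4 are the forebrain, midbrain and hindbrain media. NANOG lies at 0.558 TPM or less from day 2 on and PRDM14 at 0.573 TPM or less at day 4, POU5F1 falls in 2 steps to between 2.14 and 7.28 TPM, ZFP42 spreads out by medium, and SALL4 stays at or above 54.1 TPM in every library.

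POU5F1 was the most abundant of the 9 at day 0, with 2899.8 and 2878 TPM in the 2 hPSC libraries. At day 2 it stood at 162 and 164 TPM in aNE and at 171 and 169 TPM in pNE, which is 5.65% and 5.89% of its day-0 level. The 2 origins were close to each other and far below hPSC. Its log2 change was -4.14 ± 0.22 (SE, adjusted p = 1.74e-08) in aNE and -4.08 ± 0.22 (adjusted p = 1.89e-08) in pNE, and the origins differed by 0.06 (95% interval -0.43 to 0.55). A second fall followed: by day 4 the 6 libraries of aNE origin lay between 2.14 and 3.57 TPM and the 6 of pNE origin between 3.63 and 7.28 TPM. These ranges did not overlap, but no difference between origins in a medium passed the test (adjusted p = 0.0543 to 0.0968). At day 4, 0.0958% to 0.189% of the day-0 level remained.

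Sequence limits the reading of POU5F1. Of the 31-base words in its transcripts, 43.9% also occur in transcripts of other genes, most often in its copy POU5F1B, so the authors' quantification could have divided reads between them. POU5F1B itself had a mean of 0.365 TPM in hPSC and at most 0.400 TPM in any other group.

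NANOG, a homeodomain factor, had lost the largest share of its RNA by day 2. It fell from 77.4 and 76.2 TPM in hPSC to 0.259 and 0.247 TPM in aNE and to 0.558 and 0.0868 TPM in pNE. All 16 libraries after day 0 lay between 0 and 0.558 TPM, far below both hPSC libraries, and it was listed at 0 in 1 pNE_T library. The log2 change at day 2 was -5.96 ± 0.20 (adjusted p = 2.33e-10) in aNE and -5.90 ± 0.20 (adjusted p = 2.37e-10) in pNE. From day 2 to day 4 its changes were between -0.30 and 0.08 and none passed the test (adjusted p = 0.301 to 0.998). With 26.2% of its words shared with other genes, chiefly the retrogene NANOGP8, the NANOG level too is uncertain. NANOGP8 and NANOGP1 were listed at means of 6.65 and 4.67 TPM in hPSC and at no more than 0.103 and 0.333 TPM in any other group.

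PRDM14, a PR-domain protein that represses differentiation genes and is shared with early germ cells, left later. It stood at 65.1 and 71.6 TPM in hPSC, 24.0 and 26.0 TPM in aNE and 10.1 and 12.001 TPM in pNE. The 3 groups did not overlap, and pNE had the lowest values. Its log2 change was -1.41 ± 0.19 (adjusted p = 8.09e-05) in aNE and -2.53 ± 0.19 (adjusted p = 5.01e-07) in pNE. A pseudocount of 0.1 ended the call in aNE (-1.45, adjusted p = 0.0729). By day 4 all 12 libraries lay at or below 0.573 TPM, and 1 aNE_T and 1 aNE_M library were listed at 0. This second fall was between -4.66 and -4.53 from aNE and between -3.16 and -3.02 from pNE, with all 6 called.

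SALL4, a zinc-finger factor of stem cells and early embryonic tissues, kept more of its day-0 level at day 4 than any other of the 9. It had 88.3 and 91.3 TPM in hPSC, 177 and 156 TPM in aNE, and 66.6 and 84.8 TPM in pNE. Both aNE libraries lay above all others, and both pNE libraries lay below hPSC. In aNE the change of 0.88 ± 0.10 passed the p threshold (adjusted p = 1.85e-05) and stayed under the fold threshold, and in pNE it was -0.25 ± 0.10 (adjusted p = 0.0679). From aNE, SALL4 then fell by day 4 by 1.06 ± 0.10 in forebrain medium (adjusted p = 5.04e-06), by 1.51 ± 0.10 in midbrain medium (adjusted p = 1.18e-07) and by 1.55 ± 0.10 in hindbrain medium (adjusted p = 1.43e-07). Without aNE replicate 1 the forebrain fall was -0.97 and no longer met the fold threshold. From pNE the changes were -0.44 to 0.00, with none called, although the fall of 0.44 in hindbrain medium passed the p threshold (adjusted p = 0.00451). The 12 day-4 libraries lay between 54.1 and 79.7 TPM, and the group means at 61.6% to 88.0% of day 0.

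UTF1, a chromatin-associated factor, was at 26.5 and 22.1 TPM in hPSC, 2.18 and 1.40 TPM in aNE and 0.683 and 0.897 TPM in pNE. Both origins lay far under hPSC, with changes of -3.19 ± 0.21 (adjusted p = 9.52e-08) and -3.82 ± 0.21 (adjusted p = 1.56e-08). The lower level in pNE than in aNE did not pass the test (-0.63 ± 0.21, adjusted p = 0.0643). At day 4 it was between 0 and 0.274 TPM in all 12 libraries, and listed at 0 in 3 of them. None of its 31-base words occurs in transcripts of another gene.

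DPPA2 and DPPA4 are SAP-domain proteins that bind chromatin as a pair, and their genes lie side by side on chromosome 3, with the starts used above 21029 bases apart. Their levels were far apart. DPPA2 had 5.32 and 3.99 TPM in hPSC, and DPPA4 had 501 and 517 TPM, so that DPPA4 was 94.1 and 129 times as abundant. DPPA2 dropped to 0.540 and 0.198 TPM in aNE and to 0.936 and 0.9703 TPM in pNE. In every later library it was under 1 TPM, and its fold changes there rest on very low values. It therefore passed the filter through hPSC alone. The day-2 changes were -2.05 ± 0.19 (adjusted p = 2.53e-06) in aNE and -1.52 ± 0.19 (adjusted p = 3.66e-05) in pNE, and a pseudocount of 5 took both under the fold threshold (-0.84 and -0.69).

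DPPA4 kept a larger part of its day-0 level than DPPA2 at day 2 in both origins. It was at 133 and 134 TPM in aNE and at 215 and 202 TPM in pNE at day 2, 26.2% and 41.0% of day 0. The origins did not overlap, and pNE kept more (0.64 ± 0.10, adjusted p = 0.00107), under the fold threshold. Its level was lower again by day 4 in all 6 branches, by a change of -1.68 to -0.53. At day 4 the 12 libraries lay between 53.1 and 96.0 TPM, with group means of 11.9% to 18.1% of day 0, the narrowest spread of the 9 genes at day 4 after SALL4 (highest over lowest group mean 1.52-fold, against 1.43-fold for SALL4). In these libraries POU5F1 was at 7.28 TPM or less. The ratio of DPPA4 to DPPA2 was 96.6 to 675 in the 16 later libraries.

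ZFP42, a zinc-finger gene of the YY1 family used as a stem cell marker, lost 46.1% of its TPM in aNE and 58.1% in pNE by day 2. It had 174 and 176 TPM in hPSC, 92.7 and 95.7 TPM in aNE, and 77.8 and 68.9 TPM in pNE. The 3 groups did not overlap. In aNE the fall of 0.89 ± 0.10 passed the p threshold (adjusted p = 1.02e-05) and missed the fold threshold, and in pNE ZFP42 was called (-1.24 ± 0.10, adjusted p = 4.93e-07). At day 4 its group means ran from 0.893 TPM to 45.1 TPM, 50.5-fold apart, the widest spread of the 9 genes.

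L1TD1 was at 387 and 404 TPM in hPSC, 28.97 and 26.3 TPM in aNE and 74.7 and 74.8 TPM in pNE. Both origins were far below hPSC, and pNE kept more than aNE in both libraries. The changes were -3.79 ± 0.10 (adjusted p = 1.77e-11) in aNE and -2.39 ± 0.10 (adjusted p = 1.3e-09) in pNE. At day 4 the group means lay between 4.19 and 22.4 TPM.

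Ranked by the percent of the day-0 TPM left at day 2, the order in aNE was NANOG (0.330%), POU5F1 (5.65%), L1TD1 (6.99%), UTF1 (7.37%), DPPA2 (7.93%), DPPA4 (26.2%), PRDM14 (36.6%), ZFP42 (53.9%) and SALL4 (185%). L1TD1, UTF1 and DPPA2 did not differ beyond the spread over the 4 pairs of an aNE and an hPSC library, and the ranges of UTF1, 5.29% to 9.87%, and of DPPA2, 3.73% to 13.5%, also took in that of POU5F1. In pNE the order was NANOG (0.420%), UTF1 (3.25%), POU5F1 (5.89%), PRDM14 (16.2%), L1TD1 (18.9%), DPPA2 (20.5%), DPPA4 (41.0%), ZFP42 (41.9%) and SALL4 (84.3%). There the range of DPPA2 overlapped those of PRDM14 and L1TD1, and DPPA4 overlapped ZFP42. NANOG stood at the fast end and SALL4 at the slow end in both origins, and PRDM14 and L1TD1 exchanged places.

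**Figure D2:**
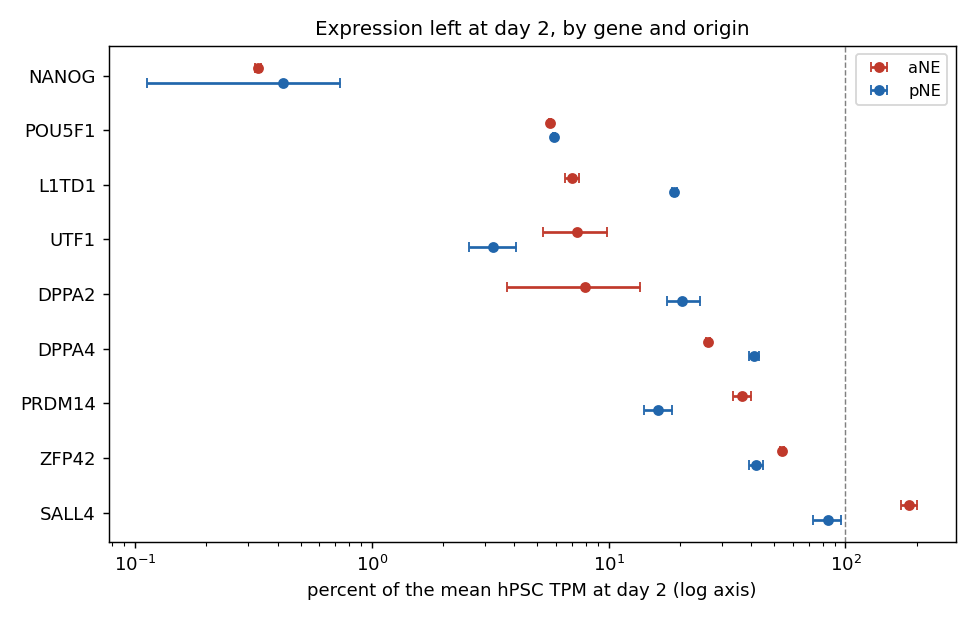
Percent of the mean hPSC TPM present at day 2, on a log axis, for each gene in aNE (red) and pNE (blue). Points are ratios of group means and bars span the 4 pairs of a day-2 and an hPSC library; the dashed line is 100%. NANOG lies below 1% in both origins, ZFP42 at 53.9% and 41.9%, and SALL4 on either side of 100%.

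At day 4 the order had changed. POU5F1, NANOG, PRDM14 and UTF1 were each at or below 0.889% of day 0 in all 6 groups, and in each group at least 1 neighbouring pair of these 4 overlapped. DPPA2 kept 3.98% to 9.68%, L1TD1 1.06% to 5.66%, ZFP42 0.511% to 25.8% and DPPA4 11.9% to 18.1%. The percent of DPPA2 is taken from a day-0 mean of only 4.66 TPM. Its day-4 group means, 0.185 to 0.451 TPM, were as low as those of NANOG, PRDM14 and UTF1 (0.0318 to 0.480 TPM). Those of L1TD1 were 4.19 to 22.4 TPM, so the place of DPPA2 above L1TD1 is not one of level. SALL4 was highest throughout. PRDM14, the seventh in the order in aNE at day 2, was among the 2 lowest in all 3 groups of aNE origin at day 4.

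Each gene's change in the second 2-day interval was also set against its change in the first, on the log2 scale and within each origin and medium. In aNE-derived cells the 2 changes differed for 9 of 9 genes in forebrain medium, 7 in midbrain medium and 8 in hindbrain medium, where 15.8%, 22.3% and 20.1% of all tested genes did. In pNE-derived cells they differed for 4, 2 and 3 genes, beside 15.4%, 21.2% and 19.2%. Part of these counts is set by the floor of the scale, since a gene cannot fall below 0 TPM in the second interval. NANOG and UTF1 in both origins, and DPPA2 in aNE, had so little left at day 2 that a difference of at least 1.61 had to follow. Of the 6 other genes, 6, 4 and 5 were called in the 3 media from aNE. Of the 7 others from pNE, 2, 0 and 1 were called. In pNE_M, where limma called 0, 4 of the 7 had an unadjusted p under 0.05: L1TD1, ZFP42, DPPA2 and DPPA4. DPPA2 passed the filter through hPSC alone, so its fall in the first interval was bound to follow. On the log2(TPM + 1) scale NANOG and UTF1 fell more in the first interval in all 6 branches, by 5.61 to 6.04 for NANOG and by 1.84 to 3.15 for UTF1. There NANOG had only 0.33 (aNE) and 0.38 (pNE) left to lose at day 2, and UTF1 1.47 and 0.84. For UTF1 a pseudocount of 0.1 ended the call in all 6 branches (adjusted p = 0.163 to 0.911). In TPM, UTF1 kept 7.37% of its day-0 level at day 2 in aNE and 3.25% in pNE. By day 4 it kept 6.13% of its day-2 level in aNE_T and 4.98% in aNE_M, a larger loss. In aNE_H it kept 12.1%, and from pNE 9.30% to 17.3%, a smaller loss. All 12 day-4 libraries were at 0.274 TPM or less. L1TD1 also lost more in the first interval from aNE, by 2.80 to 3.32, where the floor did not fix the result. For DPPA2 from aNE, with 0.44 left to lose, the difference was 1.89 to 2.14, and a pseudocount of 5 took it to 0.80 to 0.87, under the fold threshold.

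PRDM14 lost more in the second interval from aNE, with differences of -3.24 to -3.11 (adjusted p = 8.92e-06 to 2.2e-05), and the 3 differences from pNE were -0.64 to -0.49 and not called. The floor of the scale let this difference go no lower than -3.29 from aNE and -1.06 from pNE. A call from pNE was therefore hardly possible, and the 2 origins cannot be compared by it. For SALL4 from aNE, which first stood higher and then fell, the second change minus the first was -2.43 to -1.94. POU5F1 was called in the aNE branches (-1.33 to -1.19, adjusted p = 0.0193 to 0.0399), and this call was lost with a pseudocount of 5 in all 3 (adjusted p = 0.294 to 0.435) and without either aNE library. In aNE_T it was also lost without either hPSC library and with median-ratio scaling (adjusted p = 0.0559), and in aNE_H without aNE_H replicate 1 (adjusted p = 0.0551). From pNE its differences were -0.83 to -0.71 and not called. POU5F1 was called lower in both intervals in every branch.

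ZFP42 lost more in the second interval in forebrain medium from aNE (-3.12 ± 0.17, adjusted p = 3.86e-08), in forebrain medium from pNE (-4.05 ± 0.17, adjusted p = 5.47e-09) and in hindbrain medium from pNE (-3.20 ± 0.17, adjusted p = 2.2e-08). In the other 3 branches its difference was between -0.88 and -0.16 and was not called. DPPA4 lost more in the first interval from aNE in forebrain (1.39) and hindbrain medium (1.17), while from pNE its 2 falls differed by at most 0.40 and none was called. L1TD1 lost more in the second interval in 1 branch, pNE_T (-1.48 ± 0.17, adjusted p = 4.12e-05), and a pseudocount of 5 gave -0.79.

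**Figure D3:**
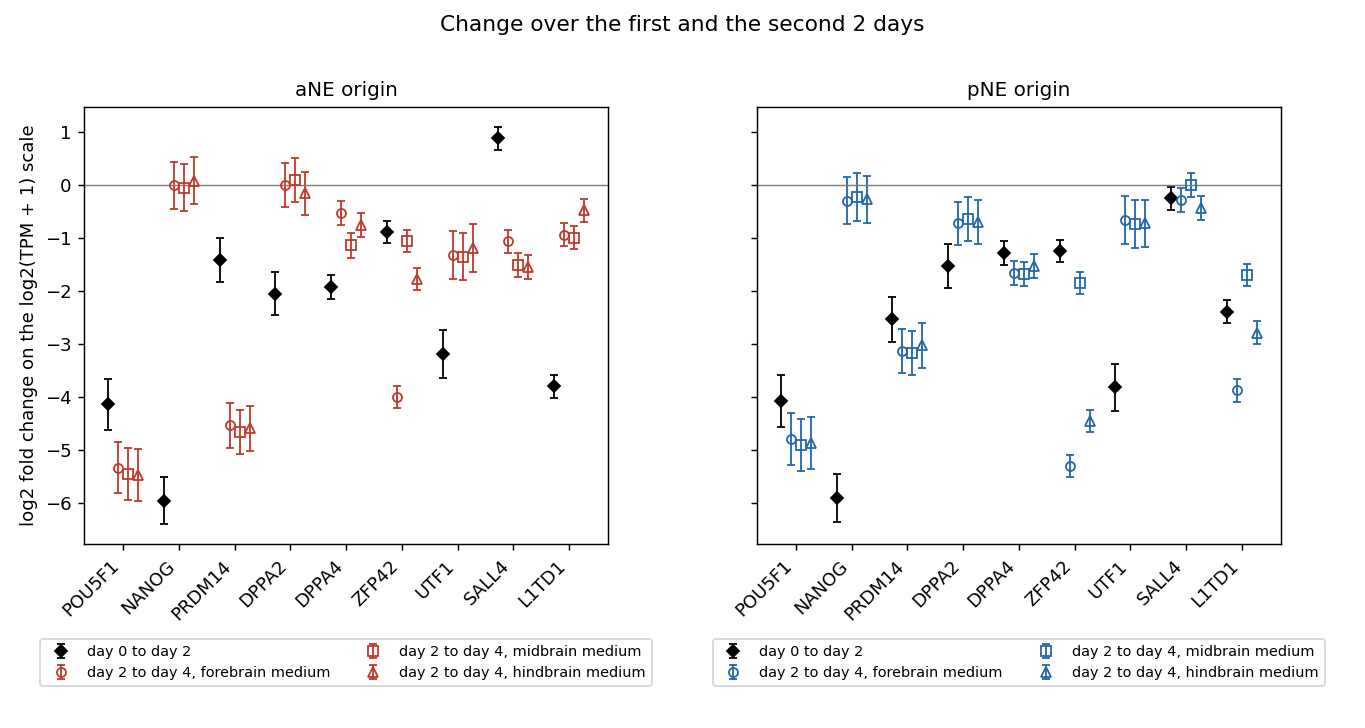
Log2 fold change from day 0 to day 2 (filled diamonds) and from day 2 to day 4 (open circles, forebrain; squares, midbrain; triangles, hindbrain) for each gene, on the log2(TPM + 1) scale, with bars for the 95% interval of limma. On this scale NANOG, UTF1 and, in aNE, L1TD1 fall mainly in the first interval, where the floor sets the result for NANOG and UTF1. PRDM14 from aNE and ZFP42 in forebrain medium fall mainly in the second, and POU5F1 in both.

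From day 2 to day 4, 5 of the 9 genes were called lower in aNE_T (4.42% of tested genes), 6 in aNE_M (7.63%) and 5 in aNE_H (6.83%). In pNE_T, pNE_M and pNE_H it was 5 each (5.56%, 7.85% and 7.80%). None was called higher, against 4.61%, 4.34% and 3.24% of tested genes in the 3 branches from aNE and 4.68%, 4.87% and 4.47% in those from pNE, and none of the 9 was higher at an unadjusted limma p under 0.05. POU5F1, PRDM14 and ZFP42 were called lower in all 6 branches. SALL4 and UTF1 were called in the 3 branches from aNE, and L1TD1 in the 3 from pNE. From aNE, L1TD1 was also lower in forebrain (-0.94, adjusted p = 1.2e-05) and midbrain medium (-0.99, adjusted p = 5.2e-06), just under the fold threshold. It passed that threshold in aNE_T without aNE replicate 2 (-1.004) or aNE_T replicate 1 (-1.06), and in aNE_M without aNE replicate 2 (-1.06) or aNE_M replicate 2 (-1.11) and with a pseudocount of 0.1 (-1.04). The UTF1 calls rest on levels of 2.18 TPM or less, were lost with a pseudocount of 5 in all 3 branches (-0.41 to -0.38), and in aNE_H also without aNE replicate 1 (-0.98). DPPA4 was called in the 3 from pNE, by -1.68 to -1.53, and in aNE_M by -1.14, which became -0.96 without aNE_M replicate 1. Without that library ZFP42 in aNE_M was at -0.97 and was not called either.

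ZFP42 differed between media in both origins. In aNE-derived cells it was at 5.13 and 4.72 TPM in forebrain medium, 42.5 and 47.7 TPM in midbrain medium and 27.6 and 26.3 TPM in hindbrain medium. In pNE-derived cells it was at 0.907 and 0.879 TPM, 20.4 and 18.9 TPM, and 2.20 and 2.63 TPM in the same media. No 2 of these groups overlapped, midbrain medium was highest in both origins, and forebrain medium lowest. ZFP42 in midbrain exceeded forebrain medium by 2.96 ± 0.10 from aNE (adjusted p = 1.03e-10) and by 3.45 ± 0.10 from pNE (adjusted p = 4.98e-11). Hindbrain exceeded forebrain medium by 2.24 ± 0.10 from aNE (adjusted p = 7.96e-09), and from pNE by 0.85 ± 0.10, under the fold threshold. In aNE_M, ZFP42 was at 25.8% of its day-0 level where POU5F1 was at 0.0962%.

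L1TD1 also depended on the medium, in pNE-derived cells. There it was at 4.20 and 4.17 TPM in forebrain, 22.7 and 22.0 TPM in midbrain and 10.1 and 9.88 TPM in hindbrain medium, again with midbrain highest and no overlap. Midbrain exceeded forebrain medium by 2.17 ± 0.10 (adjusted p = 3.82e-09) and hindbrain exceeded forebrain medium by 1.08 ± 0.10 (adjusted p = 7.11e-06), of which the second fell to 0.70 with a pseudocount of 5. From aNE it was at 15.3 and 12.7, 12.3 and 14.6, and 19.2 and 20.0 TPM in these media, with differences of at most 0.51 and none called. DPPA4 from aNE was lower in midbrain than in forebrain medium (-0.61 ± 0.10, adjusted p = 0.000583), under the fold threshold.

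These comparisons between media were added after the day-4 values of ZFP42 and L1TD1 had been seen. Among the 9 genes, 1 was called between midbrain and forebrain (10.1% of tested genes), 1 between hindbrain and forebrain (6.60%) and 0 between hindbrain and midbrain (4.92%) from aNE. In that last comparison 3 of the 9 had a limma adjusted p under 0.05 alone, and 3 an unadjusted p under 0.05: ZFP42 (-0.72), L1TD1 (0.51) and DPPA4 (0.39). From pNE the counts were 2 (8.60%), 1 (5.03%) and 2 (5.99%). ZFP42 and L1TD1 made up all of these calls.

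**Figure D4:**
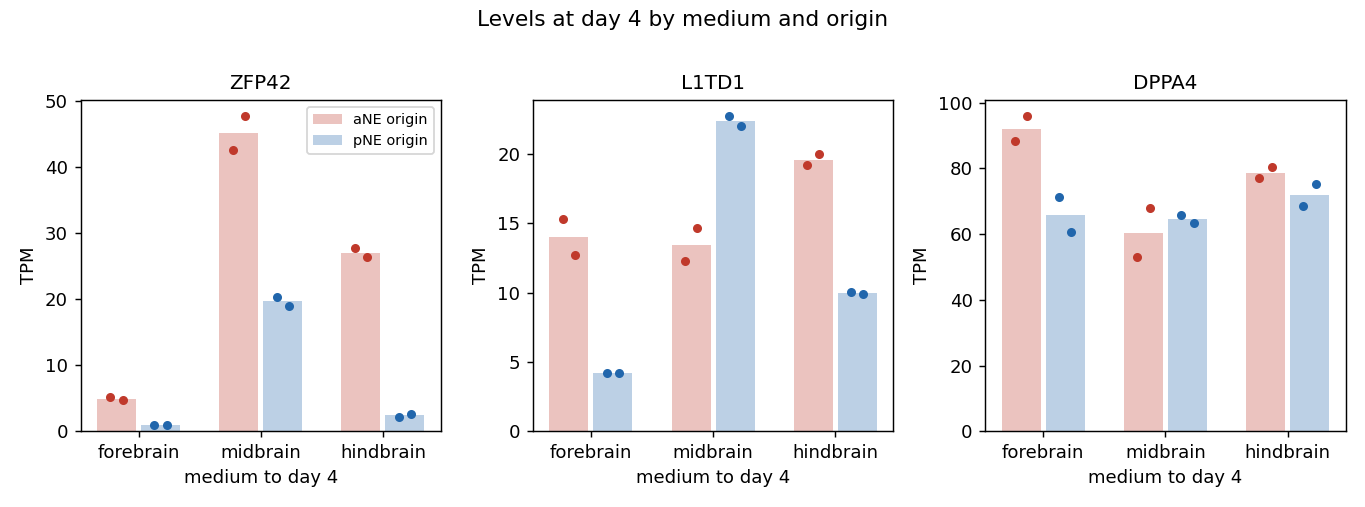
TPM at day 4 of ZFP42, L1TD1 and DPPA4 in forebrain, midbrain and hindbrain medium. Bars are means of 2 libraries, points are the libraries, red is the aNE and blue the pNE origin. ZFP42 is highest in midbrain medium in both origins and higher from aNE than from pNE in each medium, L1TD1 ranges from 4.17 to 22.7 TPM, and DPPA4 stays between 53.1 and 96.0 TPM.

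The origins were compared directly at each stage. At day 2, 3 of the 9 genes were called (3.85% of tested genes): L1TD1 was higher in pNE by 1.40 ± 0.10 (adjusted p = 7.2e-07), and PRDM14 and SALL4 were lower by 1.11 ± 0.19 (adjusted p = 0.00174) and 1.13 ± 0.10 (adjusted p = 6.67e-06). Without pNE replicate 1, L1TD1 alone was called, with PRDM14 at -0.9998 and SALL4 at -0.96, and a pseudocount of 0.1 gave PRDM14 an adjusted p of 0.254. At day 4, L1TD1 (-1.53 ± 0.10, adjusted p = 1.24e-07) and ZFP42 (-1.65 ± 0.10, adjusted p = 4.31e-08) were lower from pNE in forebrain medium (7.77% of tested genes), where a pseudocount of 5 took ZFP42 to -0.75. ZFP42 alone was called in midbrain medium (-1.16 ± 0.10, adjusted p = 1.88e-06, 5.74% of tested genes) and in hindbrain medium (-3.04 ± 0.10, adjusted p = 2.03e-10, 6.83%). So ZFP42 was lower from pNE in all 3 media, whereas L1TD1 turned from higher in pNE at day 2 to lower in pNE_T. L1TD1 was lower from pNE in hindbrain medium too (-0.91, adjusted p = 2.06e-05) and higher in midbrain medium (0.70), both under the fold threshold.

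Whether the change from day 2 to day 4 differed between origins was tested as an interaction, the change from pNE minus the change from aNE. Of the 9 genes, 4 were called in forebrain medium (7.14% of tested genes), 2 in midbrain medium (7.02%) and 4 in hindbrain medium (7.83%). L1TD1 fell further from pNE in forebrain (-2.93 ± 0.14, adjusted p = 2.14e-08) and hindbrain medium (-2.31 ± 0.14, adjusted p = 2.27e-07), from its higher start. ZFP42 did so in forebrain (-1.29 ± 0.14, adjusted p = 2.56e-05) and hindbrain medium (-2.68 ± 0.14, adjusted p = 4.35e-08). PRDM14 fell less from pNE in all 3 media, by 1.40 to 1.56, from its lower start. On the log2(TPM + 1) scale it had only 3.59 left to lose in pNE at day 2. Its falls from aNE were 4.53 to 4.66, so the floor of the scale fixed the direction of this term. SALL4 was called in midbrain and hindbrain medium, where it fell from aNE by 1.51 and 1.55. From pNE its changes there were 0.00 and -0.44, neither called, although the second passed the p threshold (adjusted p = 0.00451). DPPA4 fell further from pNE in forebrain medium. So 5 of the 9 were called in 1 or more media, as were 14.1% of tested genes, and NANOG, POU5F1, DPPA2 and UTF1 were called in none.

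The time courses of the 9 genes were compared over the 9 group means of log2(TPM + 1), which share the hPSC libraries and the large step from day 0. Pearson's r between 2 of the 9 was between 0.212 (NANOG and SALL4) and 0.987 (POU5F1 and PRDM14). Among 1956 other genes with at least 10 TPM in a group and a range of at least 2 on the log2 scale, those most like POU5F1 were GAL (r = 0.994), CCDC69 and TRIM14. GAL, which encodes the neuropeptide galanin, went from a mean of 110.3 TPM in hPSC to 16.5 TPM in aNE, to 26.9 TPM in pNE and to at most 1.95 TPM at day 4. Nearest to PRDM14 were KDF1 (r = 0.991), MARVELD3 and KCNN2, and to UTF1 SLC17A9 (r = 0.996), BCL11A and TERF1. For NANOG, the 3 nearest were CYCSP45, HLA-DPA3 and GDF3 (r = 0.998), the 3 candidates of the 1956 that were listed at 0 in all 16 libraries after day 0. RBM47, KCTD14 and ERBB3 were nearest to DPPA4 (r = 0.988 to 0.984), ZBTB3, FGD5 and TRDN to DPPA2 (0.981 to 0.976), and EPB41L4B, NAAA and NFE2L3 to L1TD1 (0.968 to 0.964). ZFP42 had the nearest neighbours CTSC (r = 0.963), CAMKV and GPRC5B. SALL4 had the least close ones, NPTX1 (r = 0.909), CTSV and FRAT2, of which FRAT2 had a mean of 179 TPM in aNE, above its 61.9 TPM in hPSC and its 37.8 TPM in pNE.

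Partners of these factors in the primed state left at different speeds too. Of 24 such genes, all tested, 14 were called lower in aNE (6.19% of tested genes) and 14 in pNE (5.74%), and 1, the homeobox gene HESX1, higher in both (7.36% and 7.14%). Their median change was -1.17 and -1.20, beside 0.06 and 0.05 over all tested genes. The list was chosen with earlier results of these data known, so these counts are not independent of the values. GDF3 and NODAL passed the filter only because of hPSC, where they are highest, so a lower level after day 0 was bound to follow for them. TDGF1, a co-receptor of NODAL, went from 566 ± 12 TPM (SD, n = 2) to 3.49 ± 0.029 TPM in aNE but 30.3 ± 3.6 TPM in pNE, and GDF3, a ligand of the NODAL pathway, from 10.8 ± 1.3 TPM to being listed at 0. DNMT3B, a DNA methyltransferase, fell in 2 steps, from 1278 ± 19 TPM to 421 ± 11 TPM (aNE) or 385 ± 39 TPM (pNE), and was called lower again in all 6 branches at day 4. SOX2, which pairs with POU5F1 on DNA, was not called at day 2: it was at 191 ± 4.3 TPM in hPSC and 196 ± 21 TPM in pNE, and at 293 ± 5.8 TPM in aNE. LIN28A, an RNA-binding protein, was at 731 ± 8.0 TPM in hPSC and between 713 and 1322 TPM in every later group mean. From day 2 to day 4, 10 to 14 of the 24 were called lower, where 4.42% to 7.85% of tested genes were. FOXD3, a forkhead factor named after its values were seen, had fallen from 33.5 TPM in hPSC to 0.324 TPM in pNE, was called higher in pNE_M and stood there at 15.9 ± 6.1 TPM. It is also on the list of neural crest markers. Of the others, SNAI2, SOX10 and TFAP2B were at 17.3, 5.39 and 0.390 TPM in pNE_M, against 2.00, 0.923 and 0.0767 TPM in pNE. ETS1 was lower, at 1.01 against 2.91 TPM. Whether neural crest cells had a part in the FOXD3 level was not tested.

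Of 14 genes of the naive state, 10 were tested, and 3 were called lower in aNE (DPPA3, NR5A2 and SUSD2) and 2 in pNE (DPPA3 and SUSD2), with KLF5 higher in pNE. The share of all tested genes called lower was 6.19% and 5.74%, and the median change of these 10 genes was 0.12 and -0.01. With a pseudocount of 5 none of these was called in either origin, so these counts rest on low values. DPPA3 and SUSD2 passed the filter through hPSC alone, with means of at most 0.0988 and 0.407 TPM in later groups. A lower level was therefore bound to follow for them, and apart from them only NR5A2 in aNE was called lower. SUSD2, a surface marker of naive cells, was at 2.93 TPM in hPSC. Among 16 relatives of the 9 genes by family, 13 were tested, of which 1 was called lower and 3 higher in aNE and 2 lower and 2 higher in pNE, beside 6.19% and 7.36% and 5.74% and 7.14% of tested genes. Those lower were NANOGP1 in both origins and, in pNE, SALL3, a sister gene of SALL4 (-1.20 ± 0.26, adjusted p = 0.00291). NANOGP1 too passed the filter through hPSC alone, at a mean of 4.67 TPM there and at most 0.333 TPM in any later group. From day 2 to day 4 SALL3 was called lower in forebrain medium from both origins. PRDM1, a PR-domain relative of PRDM14, was higher in both origins (2.16 and 1.94), with a mean of 0.153 TPM at day 0 and of 4.22 and 3.43 TPM at day 2. SALL1, another sister gene of SALL4, rose from 36.0 ± 1.0 TPM to 129 ± 2.0 TPM in aNE (1.81 ± 0.10, adjusted p = 2.8e-08) and 74.4 ± 9.8 TPM in pNE (1.02 ± 0.10, adjusted p = 5.99e-06), the last at the fold threshold. POU3F1, a neural relative of POU5F1, was called higher in aNE (122 ± 6.2 TPM, from 53.7 ± 2.2 TPM) and lower by day 4 in every branch but pNE_T. POU3F2 was called higher from day 2 to day 4 in 5 of the 6 branches, aNE_T excepted. Of 11 repressors and silencers of pluripotency genes, 1 was called lower (DNMT3B) and 1 higher (NR2F2) in each origin at day 2, shares near those of all tested genes (6.19% and 5.74% lower, 7.36% and 7.14% higher).

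Markers of cell types were read beside these values. The summed TPM of 5 stem cell markers, 4 of them among the 9 genes, was 4096 to 4109 in hPSC, 288 to 357 at day 2 and 8.83 to 65.1 at day 4. Neural ectoderm markers (9 genes) summed to 337 to 344 in hPSC, 1409 to 1433 in aNE, 711 to 856 in pNE and 432 to 1694 at day 4. SOX2 and NES, at 191 and 81.5 TPM, made up most of the hPSC sum. In pNE_M 6 of the 9 reached a mean of 1 TPM, and in hPSC 5. LHX5 was listed at 0 in both pNE_M libraries, PAX6 was at 0.370 TPM there, and SOX3 at 2.43 TPM, against 21.4 TPM in hPSC. HES5 was listed at 0 in both libraries of pNE, aNE_H and pNE_H. Primordial germ cell markers (7 genes), of interest because PRDM14, NANOG and POU5F1 are also germ cell genes, summed to at most 36.0 TPM, reached in pNE_H, where PRDM1 had a mean of 32.4 TPM and SOX17 one of 1.17 TPM. SOX17 was listed at 0 in both libraries of hPSC, aNE_T, aNE_M, aNE_H, pNE and pNE_M. Where ZFP42 was highest at day 4, in aNE_M, 8 mesendoderm markers summed to 97.8 and 117 TPM, mostly MIXL1 (a mean of 86.5 TPM), above the 1.502 to 31.8 TPM of the other groups. Only 3 of the 8 reached a mean of 1 TPM in aNE_M: MIXL1, EOMES (16.5 TPM) and TBXT (3.36 TPM). GSC was at 0.520 TPM, under its 29.4 TPM in aNE, and MESP1, GATA6, FOXA2 and GATA4 were at 0.163 TPM or less. In pNE_M, where L1TD1 was highest at day 4, 8 trophectoderm and amnion markers summed to 267 and 272 TPM, mostly CDX2 (a mean of 249.2 TPM), against 10.9 to 73.1 TPM in the other groups after day 0 and 468 to 545 TPM, mostly GABRP, in hPSC. HAND1, of the same list, was also highest in pNE_M, at a mean of 5.35 TPM, against 0.573 TPM or less in every other group. Other genes of that list were not high in pNE_M: GATA3 was at 0.279 TPM, under its 7.32 TPM in pNE_T. GATA2 was at 0.298 TPM and TFAP2A at 0.914 TPM there, and ISL1 was listed at 0. Whether cells with these markers had a part in the levels of ZFP42 and L1TD1 was not tested.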

How the data were processed

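RNA was measured in 18 libraries. The authors deposited 1 table of TPM per gene, 1 column per library, in which every column belongs to a library of the 9 groups. Per the submitters' processing notes, bcl2fastq, FastQC, Trim Galore, kallisto and deepTools were used, with build hg38; their roles, versions and the annotation are not given in the sources used here. TPM is relative within a library and keeps no depth, so no counting interval is given, and a value of 0 is read only as listed at 0. Replicate numbers give 2 libraries a group.

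From these values, log2(TPM + 1) was taken for the 17033 genes that reached 1 TPM in 2 or more libraries, and fitted with limma 3.58.1 (R 4.3.3) as 1 mean per group, with a variance trend, 9 residual degrees of freedom and two-sided p-values adjusted by Benjamini-Hochberg over all tested genes. This gave 21 contrasts, and 6 contrasts between media were added after values were seen. The fit was tested on simulated data. The named genes were the 9 members, the 3 genes most like each, and the gene lists, which were all chosen with earlier results of these data known. Percent left is the ratio of group mean TPM to the hPSC mean. Same-numbered libraries did not deviate together (36 pairs of groups, r = -0.09 to 0.076), so the numbers do not pair them. Shared words are the 31-base words of a gene's GENCODE 29 transcripts found in other genes' transcripts. Alternatives were pseudocounts of 0.1 and 5, a filter at 5 TPM or none, scaling by median ratios, quantile normalization, no variance trend, a replicate block, the compared groups alone, the adjusted p alone and each library left out.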

Additional observations from a re-analysis of the deposited data

Results flagged for a closer look

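The change from day 2 to day 4 differed between the origins for 5 of the 9 genes, by a limma interaction term in 1 or more media (the pNE change minus the aNE change, on the log2(TPM + 1) scale), where 14.1% of all tested genes were called in 1 or more media. L1TD1 gave -2.93 in forebrain and -2.31 in hindbrain medium, and ZFP42 gave -1.29 and -2.68 in the same media, so both fell further from pNE. DPPA4 gave -1.12 in forebrain medium (adjusted p = 0.000187). PRDM14 fell less from pNE, by 1.40 in forebrain medium (adjusted p = 0.00401), 1.49 in midbrain medium (adjusted p = 0.00256) and 1.56 in hindbrain medium (adjusted p = 0.00159). SALL4 gave 1.51 in midbrain (adjusted p = 1.03e-05) and 1.11 in hindbrain medium (adjusted p = 0.000145), and its hindbrain value was 0.94 without pNE replicate 1. Its own change from pNE was 0.00 in midbrain and -0.44 in hindbrain medium, neither called, the second with an adjusted p of 0.00451. The midbrain term therefore comes from its fall from aNE, and the hindbrain term from a larger fall from aNE than from pNE. PRDM14 started from means of 25.0 TPM (aNE) and 11.04 TPM (pNE) and ended at or below 0.573 TPM in all 12 libraries. On the log2(TPM + 1) scale it had 3.59 left to lose in pNE at day 2, less than its falls of 4.53 to 4.66 from aNE. A smaller fall from pNE therefore had to follow. With a pseudocount of 0.1 the PRDM14 term in forebrain medium had an adjusted p of 0.1003, and with a pseudocount of 5 the terms of PRDM14 in forebrain (0.97) and midbrain medium (0.99) and of ZFP42 in forebrain medium (-0.41) were under the fold threshold. The cause of these differences was not tested, and neither origin nor interval can be told apart from plating density at day 4.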

How the results depend on the processing

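Of 1953 recomputed log2 differences of the 9 genes, 0 reversed, 1891 stayed on the same side of the call, 50 lost it and 12 gained it; of 430 recomputed counts of genes called, 408 stayed within 1.5 times. Of 208 recomputed list counts 178 did, and the 30 others were counts of 3 or fewer genes in the naive, relative and repressor lists. Of 360 recomputed percentages left, 323 moved by less than the replicate spread. Calls by adjusted p alone raised the count of higher genes in aNE at day 2 from 0 to 1, of lower genes in pNE_H at day 4 from 5 to 8, and of genes that differed between origins from 3 to 5 at day 2, from 2 to 4 in forebrain, from 1 to 3 in midbrain and from 1 to 2 in hindbrain medium. The same rule gave 4 in place of 2 for the late against the early change in pNE_M, 5 in place of 2 for the midbrain interaction, 3 in place of 1 for midbrain and for hindbrain against forebrain medium from aNE, 3 in place of 0 for hindbrain against midbrain medium from aNE, and 2 in place of 1 for hindbrain against forebrain medium from pNE. A pseudocount of 5 gave 1 gene in place of 2 between origins in forebrain medium, 2 in place of 4 for the forebrain interaction, 1 in place of 2 for the midbrain interaction, 0 in place of 1 for hindbrain against forebrain and 1 in place of 2 for hindbrain against midbrain medium from pNE. A pseudocount of 0.1 gave 1 in place of 2 for the late against the early change in pNE_M and 2 in place of 1 for hindbrain against forebrain medium from pNE, and called DPPA2 and UTF1 lower at day 4 in all 3 pNE branches. Leaving out 1 library at a time gave 1 to 3 genes between origins at day 2 (1 without pNE replicate 1) and 1 to 2 for the late against the early change in pNE_M (1 without either hPSC library, since NANOG and DPPA2 then missed the 1 TPM filter and were not tested). The replicate block changed no call of the 9 genes, which stayed at 7 lower in aNE and 8 in pNE at day 2. DPPA2 was not tested under the 5 TPM filter. The median change of all tested genes was -0.11 to 0.06 over the contrasts and -0.01 to 0.02 with median-ratio scaling. Depth is unknown, the counting error of NANOG, UTF1, PRDM14 and DPPA2 under 1 TPM is therefore not known, and the spread is that of 2 libraries a group.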
